A study of Homo sapiens with 30 samples.

Results

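The 26S proteasome was examined through the 44 protein-coding genes whose symbols run from PSMA to PSMF followed by a number, chosen by symbol alone from 60483 gene records and without pseudogenes. Of the 44, 42 had enough counts to be tested. PSMA8, an alpha subunit known from the testis, and PSMB11, a beta subunit known from the thymus, had between 0 and 3 counts per library and were left out of the tests. PSMC3IP and PSME3IP1, whose symbols begin alike but whose products are not subunits, were not counted.

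The 30 sequenced cultures were of PANC-1, an established line from a human pancreatic ductal carcinoma, and formed 10 groups of 3 that the study describes as parallel biological replicates. PANC-1 cells formed tumoroids either alone (no DSLBs) or together with droplet-supported lipid bilayers, DSLBs, which are oil droplets wrapped in a lipid membrane that act as synthetic cells. The hybrids held plain DSLBs without protein, DSLBs with PD-1, or DSLBs with PD-1 and 1 further protein, which was LAG3, TIGIT, ICOS, CTLA4, CD2, CD27 or CD40L. All 24 protein-bearing cultures therefore carried PD-1, no culture held immune cells, and every culture came from 1 cell line. Library totals were 21.9 to 60.5 M expected counts (median 40.6 M), and the 44 genes took 0.548 to 0.656% of them. The mitochondrial share of counts ran from 1.71% in PD-1/LAG3 replicate 3 to 7.0%. The keratin gene KRT8 ran from 2428 to 3465 TPM over the 30 libraries. Mean levels were 1476 TPM for KRT18, 1255 for KRT19, 12.7 for KRT7, 58.0 for EPCAM and 2657 for the mesenchymal gene VIM. Among markers of T cells, B cells, monocytes, endothelium and fibroblasts, CD3E was at 0 in every library. The other markers of these cells did not exceed 1.60 TPM, the highest value of CD14. In an earlier analysis of these data 4 libraries stood apart from their groups, replicate 2 without DSLBs, PD-1 replicate 1, PD-1/CTLA4 replicate 2 and PD-1/LAG3 replicate 3, and counts of changed genes are also given without them.

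The proteasome is the protease that degrades ubiquitin-tagged proteins in every cell. Its 20S core is a barrel of outer alpha rings and inner beta rings, and the beta subunits PSMB5, PSMB6 and PSMB7 carry the catalytic sites. The 19S particle caps the barrel, recognises ubiquitin and feeds unfolded substrate through a ring of ATPases. Interferon-inducible subunits PSMB8, PSMB9 and PSMB10 replace the constitutive catalytic subunits to form the immunoproteasome, and the PA28 activator made of PSME1 and PSME2 opens the core, both known for producing peptides that MHC class I molecules display to T cells.

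The subunits differed widely in level but little between cultures. Levels between genes are given as TPM, which is scaled for transcript length. In the alpha ring the mean over 30 libraries ran from 306 ± 25.1 TPM (SD) for PSMA7 to 105.5 ± 13.8 for PSMA3, and in the constitutive beta ring from 341 ± 25.9 for PSMB4 to 70.0 ± 4.03 for PSMB2. The constitutive catalytic subunits PSMB5, PSMB6 and PSMB7 averaged 132, 104.5 and 139 TPM. Their inducible counterparts lay lower, PSMB8 at 34.8 ± 4.74, PSMB9 at 19.2 ± 2.55 and PSMB10 at 37.5 ± 7.72 TPM. Among 11 non-ATPase subunits of the 19S particle the mean ran from 342.5 ± 58.1 for PSMD2, a scaffold of the base, to 37.3 ± 5.59 for PSMD12, a lid subunit. The 3 chaperones of base assembly lay between 105.8 ± 6.63 for PSMD10 and 31.1 ± 3.88 for PSMD5, and the activators and the inhibitor between 155 ± 10.96 for PSME2 and 42.6 ± 3.86 for PSME4, the gene of the activator PA200. The coefficient of variation of TPM over the 30 libraries had a median of 8.78% among the 42 genes and reached 20.6% for PSMB10. The ratio of the highest to the lowest group mean, taken on CPM (counts scaled to library size with TMM factors), was 1.11 for PSMC4 and had a median of 1.24, and it was largest for PSMB10 (1.79) and PSMB8 (1.68).

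**Figure D1:**
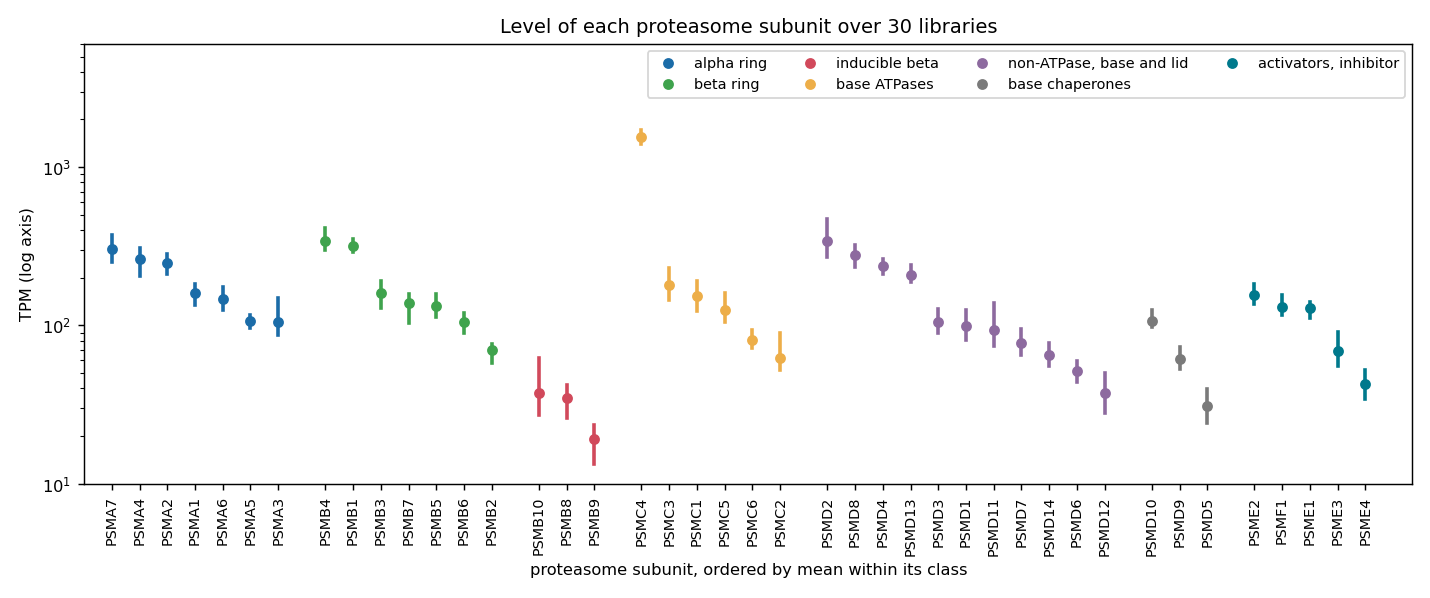
TPM of the 42 tested proteasome subunits (log axis), grouped by class and ordered by mean; points are means over 30 libraries and vertical lines run from the lowest to the highest library. PSMC4 stands at 1556 TPM, above every other subunit, and the inducible subunits PSMB8, PSMB9 and PSMB10 lie among the lowest.

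PSMC4, an ATPase of the 19S base, stood apart from its partners. It averaged 1556 ± 91.0 TPM, whereas the other 5 ATPases ran from 180 ± 21.9 for PSMC3 to 61.9 ± 9.02 for PSMC2, although the ring holds each ATPase in equal number. PSMC4 exceeded the median of these 5 by 12.4 times on average and by 10.9 to 14.4 times in single libraries, so the gap was present in every culture. The gene lies at chromosome 19, 39971165 to 39981764 (GRCh38). Of the 62 other protein-coding genes within 1000000 bases of it, 45 had a mean of at least 1 TPM, and 9 of these 45 exceeded 500 TPM, against 2.02% of the 12301 protein-coding genes with at least 1 TPM. On one side of PSMC4 stood SUPT5H at 1563 TPM, TIMM50 at 1091, SAMD4B at 771, PAF1 at 738 and FBL at 5527, and on the other AKT2 at 1259. Lower genes lay among them. FCGBP at 4.19 and ZNF546 at 33.3 TPM were the nearest on each side with at least 1 TPM. Between PSMC4 and AKT2, ZNF780B was at 151, MAP3K10 at 154 and CCNP at 3.93 TPM. Beyond AKT2 the highest gene was PLD3 at 128 TPM, with C19orf47 at 11.3 and SERTAD1 at 13.4 TPM.

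**Figure D2:**
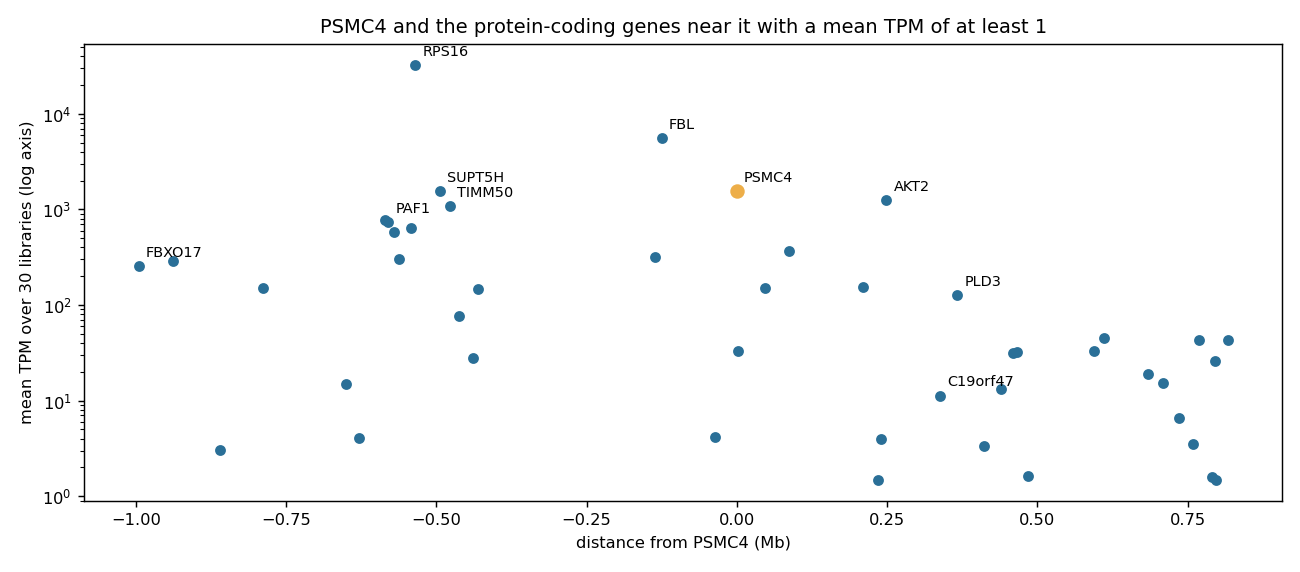
Mean TPM over 30 libraries (log axis) of PSMC4 and the 45 protein-coding genes within 1000000 bases of it that had at least 1 TPM, against their distance from PSMC4 in Mb (orange, PSMC4; blue, other genes). AKT2 at 1259 TPM is the last gene of high level to the right of PSMC4.

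Between plain DSLBs and no DSLBs no proteasome gene passed the test. None of the 42 passed the test (edgeR quasi-likelihood with Benjamini-Hochberg adjustment over 18424 genes, threshold 0.05), and 0.0109% of all tested genes did. At an unadjusted p under 0.05 there were 3 of the 42, against 6.10% of all genes, and DESeq2 also called 0 of the 42, against 0.0923% of all genes. The log2 fold changes lay between -0.30 for PSMB10 and 0.23 for PSMB7, with a median of 0.05 against 0.00 over all genes.

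With PD-1 on the DSLBs, inducible and PA28 genes were among those that rose and some 19S genes among those that fell. Against plain DSLBs 13 of 42 subunits changed, or 31%, against 22% of all tested genes. Of these, 8 were higher, or 19% against 11.3% of all genes, and 5 were lower, or 11.9% against 10.7%, a share near the background. The mitochondrial share of counts moved with this comparison, at 2.66 to 4.0% in the PD-1 libraries and 4.73 to 5.19% in the plain ones, and its part in the result was not tested. The higher genes were PSMB8, PSMB9, PSME1, PSME2, the inhibitor gene PSMF1 and the core subunits PSMA6, PSMB1 and PSMB2, and the lower ones were PSMD1, PSMD2, PSMD11, PSMD12 and PSMD5. No subunit of the 19S base or lid rose and no 20S subunit fell in this test. Without the 4 libraries that stood apart, 14 passed, 7 in each direction, against 21.1% of all genes, and 11 of them were among the 13. When only genes with a mean of at least 100 counts were tested, 16 of 42 passed, 7 higher and 9 lower, against 30.1% of those genes. In RNA from whole cultures, a change in RNA per cell and a change in the number of cells that carry it cannot be told apart. Plain DSLBs had no protein coupled to them, and no group carried a protein without PD-1. In comparisons with plain DSLBs, PD-1 itself and the coupling of any protein therefore cannot be told apart.

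The largest difference was in PSMB8, which encodes the inducible chymotrypsin-like subunit (chromosome 6, 32840717 to 32844679, minus strand). It stood at 17.7, 18.7 and 17.8 CPM in the plain libraries and at 30.2, 27.2 and 29.1 CPM with PD-1. Every PD-1 library lay above every plain library, and the log2 fold change was 0.67 ± 0.105 (SE; edgeR adjusted p = 3.31e-05). Tumoroids without DSLBs held 17.6, 20.05 and 17.3 CPM, and all 3 lay below the PD-1 libraries.

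PSMB9 (chromosome 6, 32844136 to 32859851) held 7.498, 7.11 and 6.94 CPM with plain DSLBs and 10.1, 9.22 and 10.3 CPM with PD-1. The groups did not overlap, with a log2 fold change of 0.45 ± 0.147 (edgeR adjusted p = 0.0265). PSMB10 (chromosome 16, 67934506 to 67936864) held 10.4, 11.3 and 10.2 CPM and 17.0, 14.9 and 14.9 CPM in the same groups. Its log2 fold change of 0.55 ± 0.214 missed the threshold (edgeR adjusted p = 0.068). Without DSLBs PSMB10 was at 10.3, 16.3 and 12.4 CPM, so replicate 2 of that group lay inside the range of the PD-1 libraries. PSMB8 and PSMB9 share bases 32844136 to 32844679 on opposite strands, and no source used here gives the strand setting of the counting.

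The constitutive subunits that these replace did not pass the test. PSMB5 averaged 93.1 ± 4.13 CPM with PD-1 and 84.9 ± 3.39 with plain DSLBs (log2 0.13 ± 0.114, edgeR adjusted p = 0.424). For PSMB6 the log2 fold change was -0.02 ± 0.0914 and for PSMB7 0.05 ± 0.0814, with edgeR adjusted p of 0.912 and 0.717. The summed TPM of PSMB8, PSMB9 and PSMB10 as a percentage of that of PSMB5, PSMB6 and PSMB7 was 18.4, 18.4 and 16.5% with plain DSLBs and 27.0, 24.4 and 24.5% with PD-1. Without DSLBs it was 19.02, 23.9 and 18.7%, and the mean of the PD-1 group was 1.42 times that of the plain group. In the 7 groups with a further protein the group means lay between 23.8 ± 1.17% for PD-1/CD27 and 28.6% for both PD-1/CTLA4 (SD 4.49) and PD-1/LAG3 (SD 6.29). PD-1/LAG3 replicate 3, the library of lowest mitochondrial share, held 35.8%, and its partners 24.4 and 25.5%. This percentage is a description and was not tested.

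PSME1 and PSME2 rose as PSMB8 and PSMB9 did. PSME1, the alpha subunit of PA28 (chromosome 14, 24136163 to 24138967), stood at 68.6, 68.3 and 66.0 CPM with plain DSLBs and at 90.1, 86.3 and 86.7 CPM with PD-1. The groups lay far apart relative to their spread, with a log2 fold change of 0.37 ± 0.0602 (edgeR adjusted p = 4.7e-05). PSME2, the beta subunit, lies nearby at 24143362 to 24147570 on the other strand and held 64.5, 62.6 and 67.9 CPM against 81.1, 76.7 and 81.4 CPM (log2 0.29 ± 0.0871, edgeR adjusted p = 0.0152). PSME3, the nuclear PA28 gamma subunit, went the other way without passing the test, at 99.2 ± 2.05 CPM with plain DSLBs and 88.6 ± 1.09 with PD-1 (edgeR adjusted p = 0.0984). PSME4 was at 145 ± 6.07 and 143 ± 8.27 CPM (edgeR adjusted p = 0.87). PSMF1, which encodes the inhibitor PI31, rose from 85.1 ± 2.30 to 95.4 ± 4.42 CPM (log2 0.17 ± 0.0516, edgeR adjusted p = 0.021).

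**Figure D3:**
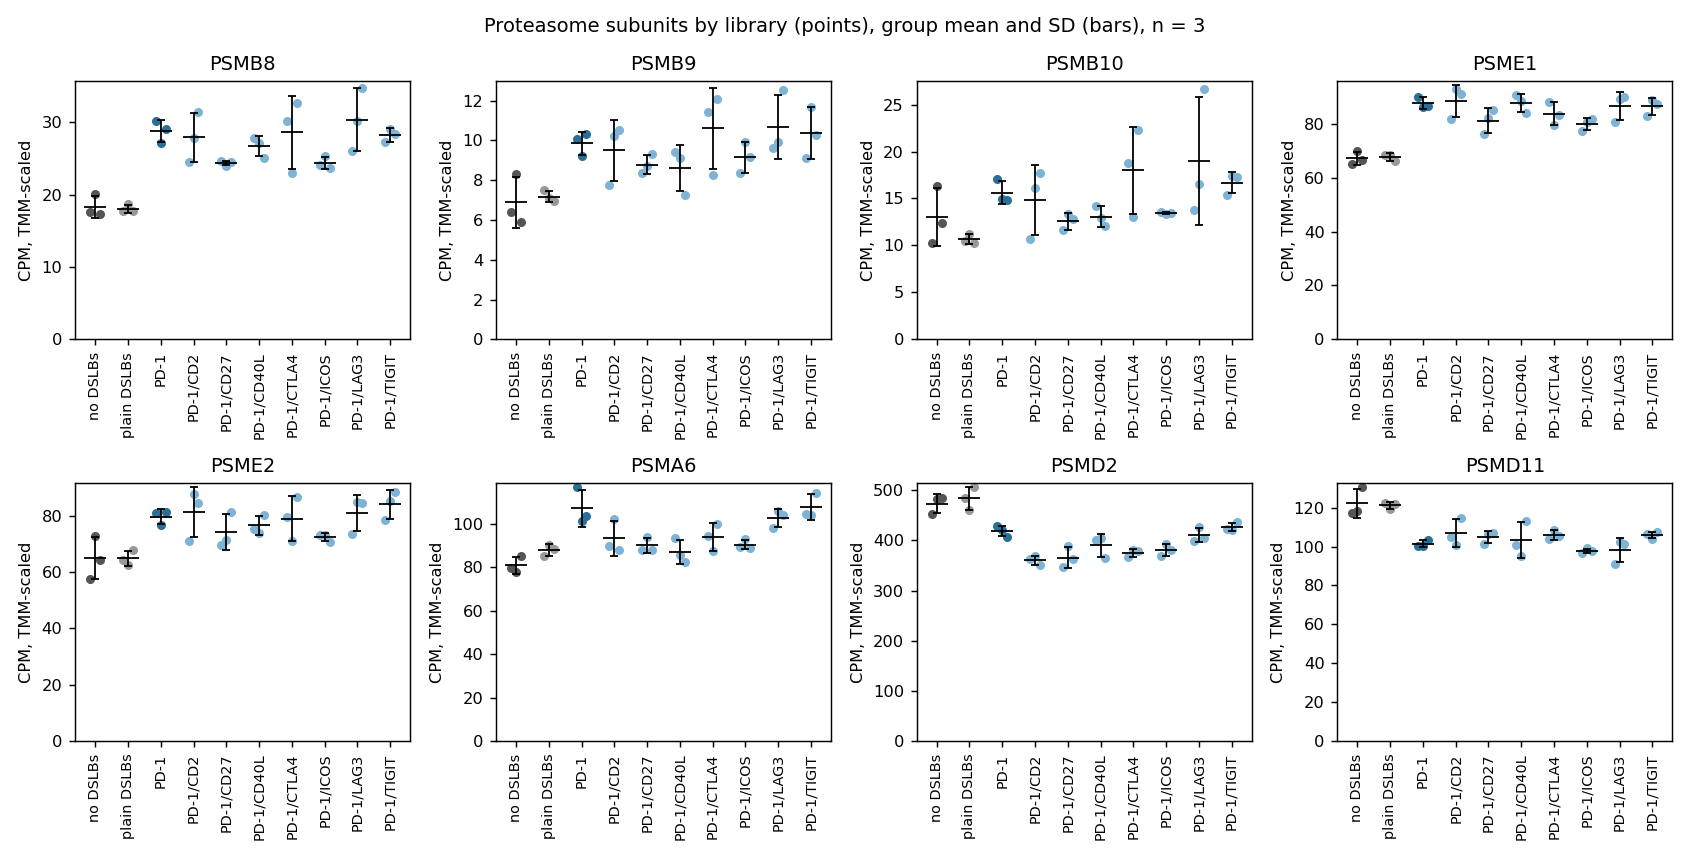
CPM of 8 subunits in each of the 30 libraries (points), with the group mean and SD as bars (n = 3 per group; dark grey, no DSLBs; light grey, plain DSLBs; dark blue, PD-1; light blue, PD-1 with a further protein). PSMB8 and PSME1 lie higher in all 24 protein-bearing libraries than in the 6 others, and PSMD2 and PSMD11 lie lower.

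The stretches before the start sites of 4 of these genes and of PSMD2 are shown because these are inducible and PA28 genes that were higher in protein-bearing hybrids and the gene of smallest p in that comparison, which was lower. The sequences are those of RefSeq on GRCh38.p14, given 5′ to 3′ on the strand of the gene, from up to 250 bases before the RefSeq start and without bases that GENCODE v44 annotates as UTR. Capitals mark matches to GAAANNGAA (the core of the interferon-stimulated response element, ISRE), TTCNNNGAA (the interferon-gamma activated site, GAS), TGACNNNGC (the antioxidant response element) or CCAAT, searched on both strands. No matches shown overlap each other. The RefSeq start of PSMB9 lies inside the GENCODE extent of the gene given above, so that stretch does too. For the same reason the last bases of the PSMB10 stretch lie inside its gene's extent.
PSMB8 upstream, chr6:32844680-32844835, minus strand: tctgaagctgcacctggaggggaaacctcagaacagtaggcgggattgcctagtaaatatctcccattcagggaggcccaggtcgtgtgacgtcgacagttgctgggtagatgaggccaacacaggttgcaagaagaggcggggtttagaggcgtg
PSMB9 upstream, chr6:32853942-32854191, plus strand: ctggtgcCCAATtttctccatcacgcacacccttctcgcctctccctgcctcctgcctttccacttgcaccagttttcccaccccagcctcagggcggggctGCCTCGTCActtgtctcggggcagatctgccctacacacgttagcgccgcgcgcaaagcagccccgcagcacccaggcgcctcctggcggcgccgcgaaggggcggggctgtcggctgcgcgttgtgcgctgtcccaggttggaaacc
PSMB10 upstream, chr16:67936851-67937100, minus strand: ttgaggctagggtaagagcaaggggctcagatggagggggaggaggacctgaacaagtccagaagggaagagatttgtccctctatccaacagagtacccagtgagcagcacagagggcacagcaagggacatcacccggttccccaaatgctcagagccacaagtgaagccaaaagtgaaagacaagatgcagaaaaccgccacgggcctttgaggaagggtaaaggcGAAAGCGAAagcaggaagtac
PSME1 upstream, chr14:24135944-24136162, plus strand: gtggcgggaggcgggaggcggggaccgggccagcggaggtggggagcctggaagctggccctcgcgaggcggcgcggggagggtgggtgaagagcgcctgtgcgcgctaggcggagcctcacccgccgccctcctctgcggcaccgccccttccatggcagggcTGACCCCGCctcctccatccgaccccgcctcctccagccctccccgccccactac
PSMD2 upstream, chr3:184298991-184299197, plus strand: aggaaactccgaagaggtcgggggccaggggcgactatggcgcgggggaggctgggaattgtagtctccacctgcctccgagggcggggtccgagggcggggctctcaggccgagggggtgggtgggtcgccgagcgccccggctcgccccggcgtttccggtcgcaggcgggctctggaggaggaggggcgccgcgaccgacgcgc
In the 250 bases before the start, the ISRE core was found in 4 of the 39 proteasome genes with a RefSeq sequence (PSMA4, PSMB4, PSMB10 and PSME2) and in 7.06% of 27305 such stretches. GAS letters were found in 5 of 39 against 6.78%. The antioxidant response element was found in 9 of 39 against 11% (PSMB3, PSMB9, PSMD3, PSMD5, PSMD9, PSMD12, PSME1, PSME2 and PSME4). CCAAT was found in 17 of 39 against 33%. In PSMB10 the ISRE core lay at -21 to -13 from the start, and the PSMB8 and PSMD2 stretches shown hold none of the 4 motifs. A match is a description of letters and not a measured site.

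In the 20S core the shifts were small. Among 7 tested alpha subunits all 7 had a log2 fold change above 0 with a median of 0.10, and 1 passed. That gene, PSMA6 (chromosome 14, 35278633 to 35317493), was at 85.0, 90.4 and 88.4 CPM with plain DSLBs and at 117, 101.2 and 103 CPM with PD-1 (log2 0.28 ± 0.0689, edgeR adjusted p = 0.00366). PD-1 replicate 1 was the highest. Among 7 constitutive beta subunits 2 passed, PSMB1 at 174 ± 6.20 and 203 ± 13.6 CPM and PSMB2 at 79.0 ± 1.04 and 88.2 ± 1.46 CPM, with edgeR adjusted p of 0.0262 and 0.0432.

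Of the 17 tested ATPase and non-ATPase subunits of the 19S particle, 4 fell and 13 did not pass. PSMD2 (chromosome 3, 184299198 to 184309050) held 484, 461 and 507 CPM with plain DSLBs and 428, 421 and 407 CPM with PD-1. The 3 PD-1 libraries were all lower, and the level fell by 0.21 ± 0.0558 on the log2 scale (edgeR adjusted p = 0.00762). PSMD11, a lid subunit (chromosome 17, 32444379 to 32483319), held 122, 119 and 122 CPM against 100.4, 100.5 and 103.5 CPM (log2 -0.26 ± 0.0615, edgeR adjusted p = 0.00342). The libraries of each group lay close together and the groups were well separated. PSMD1, the other large scaffold of the base, fell from 177 ± 7.13 to 154 ± 11.4 CPM (edgeR adjusted p = 0.0123) and PSMD12 from 57.9 ± 2.04 to 49.4 ± 1.21 CPM (edgeR adjusted p = 0.0166). The chaperone gene PSMD5 fell from 55.3 ± 0.795 to 49.3 ± 0.558 CPM (edgeR adjusted p = 0.0398). PSMD8, a lid subunit, had the largest fold change in the other direction, at 186, 189 and 199 CPM with plain DSLBs and 219, 225 and 221 CPM with PD-1 (log2 0.21 ± 0.0791, edgeR adjusted p = 0.0532). Of the 6 base ATPases 5 had a log2 fold change below 0 and none passed here, and the lowest was PSMC3 at -0.15 ± 0.0681 (edgeR adjusted p = 0.119).

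**Figure D4:**
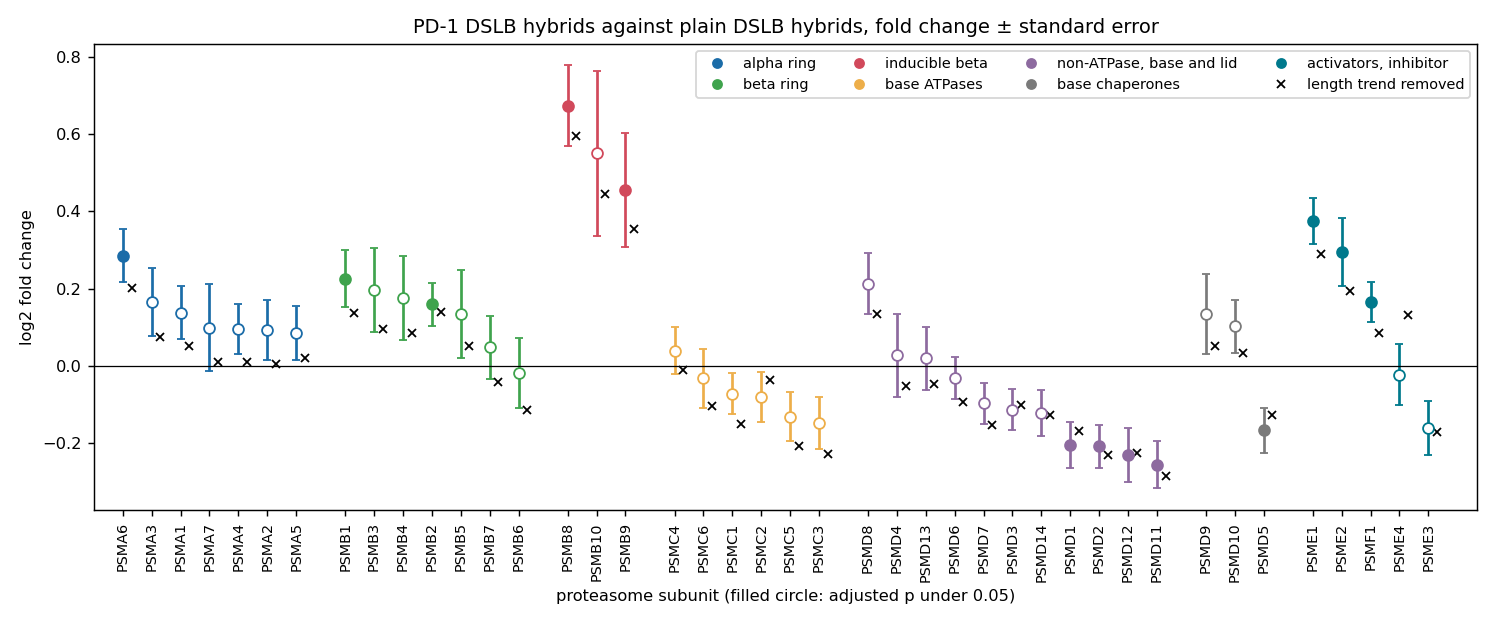
Log2 fold change of each of the 42 subunits between PD-1 and plain DSLB hybrids, grouped by class (circles with standard errors, filled where the edgeR adjusted p was under 0.05); crosses give the same value after a gene length trend was removed from each library. PSMB8, PSMB10 and PSMB9 lie highest and PSMD11 lowest, and the crosses of most 20S subunits lie nearer to 0.

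Transcript length moved with this result. Over the 42 subunits the Spearman correlation between effective length and log2 fold change was -0.717, and over all 18424 genes it was -0.281. Genes of 1 complex are not independent, and this is a description. After a length trend was removed from each library, 10 subunits passed, 5 in each direction, against 20.9% of all genes. PSMB8 (log2 0.60, edgeR adjusted p = 4.47e-06), PSME1 (log2 0.29) and PSMD11 (log2 -0.28) were among them, and PSMB1, PSMB2, PSMF1, PSMD1 and PSMD5 were not. With limma on log2(TPM + 1) the split was 2 higher and 13 lower, against 8 and 5, and 20% of all genes passed, with PSMB8 and PSME1 the higher genes. Across the 6 fits with 1 library left out, 3 subunits passed each time, PSMB8, PSMD11 and PSME1. The count was 9 without plain DSLBs replicate 1, 7 without plain replicate 2, plain replicate 3 or PD-1 replicate 1, 8 without PD-1 replicate 2 and 6 without PD-1 replicate 3. In the same fits 14.9, 16.2, 15.7, 14.9, 16.6 and 17.5% of all genes passed, in the order plain replicates 1 to 3 and PD-1 replicates 1 to 3.

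Over all 8 protein-bearing groups, PSMB8, PSMB9, PSMB10, PSME1 and PSME2 were among the higher genes. PSME3 and 10 of 17 ATPase and non-ATPase 19S genes were among the lower ones. Against plain DSLBs 20 of 42 subunits changed, or 47.6%, against 36.9% of all genes. Of these, 7 were higher, or 16.7% against 18.2%, a share near the background, and 13 were lower, or 31% against 18.7%. Without the 4 libraries that stood apart, 24 passed, 11 higher and 13 lower, against 41.4% of all genes. When only genes with a mean of at least 100 counts were tested, the same 20 passed, against 46.8% of those genes. Next to genes of such counts, the share of 47.6% was near the background. This comparison contains the PD-1 libraries and the same plain libraries, so it is no separate evidence for them. The higher genes were PSMB8, PSMB9, PSMB10, PSME1, PSME2, PSMB1 and PSMB2. PSMB10 passed here, with a mean of 15.4 ± 3.55 CPM over 24 libraries against 10.6 ± 0.540 over 3 (log2 0.52 ± 0.168, edgeR adjusted p = 0.0185). The lower genes were 7 of 11 non-ATPase 19S subunits (PSMD1, PSMD2, PSMD3, PSMD7, PSMD11, PSMD12 and the deubiquitinase gene PSMD14), 3 of 6 ATPases (PSMC1, PSMC3 and PSMC5), PSMD5, PSME3 and PSME4. The smallest p was that of PSMD2, which fell by 0.31 ± 0.0407 on the log2 scale (edgeR adjusted p = 9.86e-07). PSME3 fell by 0.24 ± 0.0517 (edgeR adjusted p = 0.000634) and PSMC3 by 0.23 ± 0.0501 (edgeR adjusted p = 0.000606). PSME4 was at -0.16 ± 0.0586 (edgeR adjusted p = 0.0353) and at 0.00 after the length trend was removed (edgeR adjusted p = 0.973). Transcript length moved with this comparison too, with a Spearman correlation of -0.715 over the 42 subunits and -0.334 over all genes. After the length trend was removed 20 passed, 3 higher (PSMB8, PSMB9 and PSME1) and 17 lower, against 33.2% of all genes. PSMB10, PSME2, PSMB1 and PSMB2 then missed the threshold, and the 20S genes PSMA5, PSMB6 and PSMB7 were among the lower ones. With limma on log2(TPM + 1) 4 were higher and 19 lower, against 37.6%.

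Library by library, 4 subunits separated the 24 protein-bearing cultures from the 6 others without overlap, or 9.52% of the 42, against 9.54% of all tested genes, a share near that background. Higher were 2, against 4.43% of all genes, and lower were 2, against 5.11%. PSMB8 ran from 22.9 to 34.8 CPM (median 27.2) in the 24 and from 17.3 to 20.05 CPM in the 6. PSME1 ran from 76.2 to 92.7 CPM (median 85.7) against 65.0 to 69.9 CPM. PSMD2 ran from 346 to 437 CPM (median 391) against 452 to 507 CPM. PSMD11 ran from 91.0 to 115 CPM (median 103) against 117 to 131 CPM.

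A further protein beside PD-1 changed few subunits past the threshold. With CD2 added, 1 of 42 passed, or 2.38% against 1.23% of all genes. That gene was PSMD2, at 363, 368 and 351 CPM against 428, 421 and 407 CPM with PD-1 alone (log2 -0.22 ± 0.0558, edgeR adjusted p = 0.0497). With CD27 added, 1 passed, or 2.38% against 2.29% of all genes. That gene was PSMA6, at 87.9, 94.0 and 88.1 CPM against 117, 101.2 and 103 CPM (log2 -0.25 ± 0.0688, edgeR adjusted p = 0.0486). Both p-values lay close to the threshold. PSMD2 passed in 0 and PSMA6 in 1 of 6 fits with 1 library left out, the latter without PD-1/CD27 replicate 2, when 4 subunits passed. Without the 4 libraries that stood apart 0 subunits passed in either comparison, against 1.38% of all genes for CD2 and 0.296% for CD27. With the replicate number as a block, 0 passed for CD27, against 2.43% of all genes. After the length trend was removed, 13 subunits passed with CD27, all lower, against 6.85% of all genes, PSMB8, PSMB5, PSME1 and PSMD2 among them.

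For CD40L, CTLA4, ICOS, LAG3 and TIGIT none of the 42 passed, and among all genes 0.0109%, 0.0434%, 0%, 0% and 0% did. DESeq2 on all libraries called 1 subunit for CD40L and 0 for the other 4, and among all genes 0.736%, 0.48%, 0.0816%, 0.038% and 0.00543%. At an unadjusted p under 0.05 there were 5, 5, 20, 0 and 1 subunits, against 11.3, 13.3, 10.2, 5.71 and 3.7% of all genes.

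With ICOS added every tested subunit lay on the lower side. The study lists its ICOS protein with a His and a human Fc tag, and the other proteins with a His tag only. ICOS and its Fc tag therefore cannot be told apart in this comparison. All 42 had a log2 fold change below 0, from -0.26 for PSMA2 to -0.03, whereas 49.5% of all genes did. The median was -0.15 against 0.00 over all genes. The 20 subunits under an unadjusted p of 0.05 made up 47.6% of the 42, against 10.2% of all genes, and the smallest edgeR adjusted p was 0.38, for PSMA6. DESeq2 fitted to the 6 compared libraries alone called 20 of 42 subunits, all lower, against 7.09% of the genes it tested, whereas edgeR on the same libraries called 0, as it did among all genes (0%). The median of the subunits lay between -0.17 and -0.12 in the 6 fits with 1 library left out. The mitochondrial share moved with this comparison too, at 4.18 to 5.08% with ICOS against 2.66 to 4.0% with PD-1 alone, and its part in the result was not tested. By class the median was -0.23 in the alpha ring, -0.17 in the constitutive beta ring and -0.15 among the ATPases. Transcript length moved with this comparison as well, with a Spearman correlation of 0.55 over the 42 subunits and 0.215 over all genes. After the length trend was removed all 42 stayed below 0 (median -0.17 against -0.04 over all genes). On log2(TPM + 1) 39 lay below 0 (median -0.08 against 0.05 over all genes).

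The other comparisons with PD-1 share the same 3 control libraries, so their directions are not independent of each other. With CD40L 39 of 42 subunits had a log2 fold change below 0 (median -0.09), with CD27 38 (median -0.11), with CTLA4 30 (median -0.05), with CD2 25 (median -0.02) and with LAG3 24 (median -0.01). With TIGIT 6 were below 0 (median 0.04). Over all genes between 48.2 and 51.4% were below 0 in these comparisons. Within groups the summed TPM of the 44 genes was 7236, 7267 and 7409 for PD-1, 6704, 6902 and 7144 for PD-1/ICOS and 6767, 6862 and 6915 for PD-1/CD40L. It was 7369, 7387 and 7672 for PD-1/TIGIT and 7622, 7667 and 7736 with plain DSLBs. The lowest group mean was that of PD-1/CTLA4 at 6794 ± 84.97, and PD-1/CD27 was at 6915 ± 223, next to 6916 ± 220 for PD-1/ICOS, so the order of these sums was not that of the median fold changes.

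**Figure D5:**
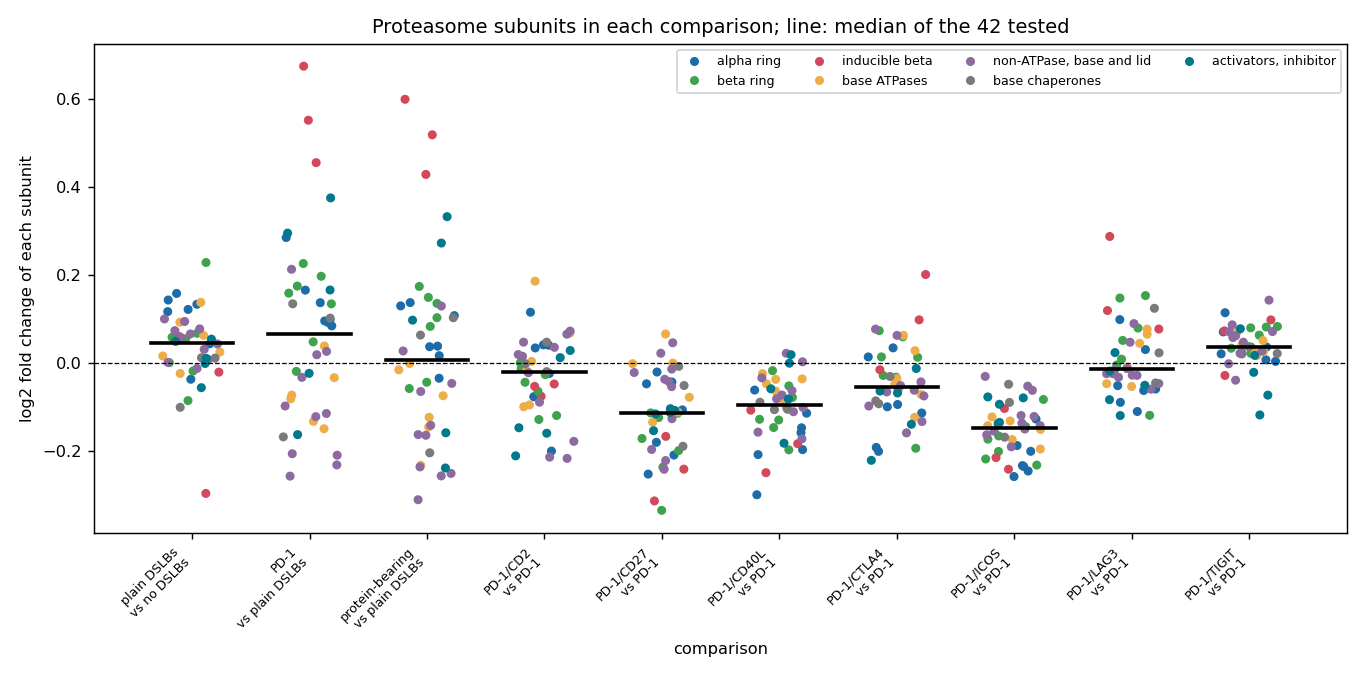
Log2 fold change of each of the 42 tested subunits (points, coloured by class) in the 10 comparisons, with the median as a black line. The inducible subunits lie above the rest where protein-bearing hybrids are set against plain ones, and all 42 points lie below 0 for PD-1/ICOS against PD-1.

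Across the 10 groups 28 of 42 subunits differed in an F test, or 66.7% against 41% of all genes. The smallest p-values were those of PSMD2 (edgeR adjusted p = 1.06e-06), PSMB8 (3.43e-06), PSME1 (4.42e-06), PSMA6 (0.000139) and PSMD11 (0.000448), followed by PSMD1, PSMD12, PSMD3, PSMB1 and PSMD5. By class 6 of 7 alpha subunits, 4 of 7 constitutive beta subunits, 3 of 3 inducible subunits, 3 of 6 ATPases and 8 of 11 non-ATPase 19S subunits passed. PSMC4, PSMB5 and PSMB6 did not. Without the 4 libraries that stood apart 34 passed, against 49.4% of all genes.

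Genes that work beside the proteasome were read from lists. Of 10 genes of peptide supply for MHC class I, 4 were higher with PD-1 than with plain DSLBs and 0 lower, where 11.3% of all genes were higher and 10.7% lower, the background for each list here. These were B2M, the light chain of MHC class I (log2 0.57 ± 0.0737, 608 against 410 CPM, edgeR adjusted p = 2.25e-06), the transcription factor gene IRF1 (log2 0.39 ± 0.0878, 22.0 against 16.7 CPM, edgeR adjusted p = 0.00173), the peptide trimming gene ERAP2 (log2 0.40 ± 0.101, edgeR adjusted p = 0.00537) and the peptide transporter gene TAP1 (log2 0.21 ± 0.0691, edgeR adjusted p = 0.0293). TAP1 shares bases with the annotated extent of PSMB9 on the opposite strand. NLRC5 did not pass. Of 9 assembly chaperones and subunits without a PSM symbol 3 were higher, PSMG2 (log2 0.37), PSMG4 (log2 0.31) and PAAF1 (log2 0.38), and 0 lower, with edgeR adjusted p of 0.000404, 0.0494 and 0.000989.

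Of 8 genes that act in the transcription of proteasome genes, 0 passed in edgeR with PD-1 against plain DSLBs. Among the 8 were NFE2L1, the factor that restores proteasome genes when the protease is inhibited, and NFE2L2. At an unadjusted p under 0.05 there were also 0 of these 8. Of 12 proteasome-bound deubiquitinases, ligases and shuttles, ZFAND5 was higher (log2 0.22, edgeR adjusted p = 0.0092) and DDI2, the protease that activates NFE2L1, lower (log2 -0.45 ± 0.0933, 44.9 against 61.1 CPM, edgeR adjusted p = 0.000948). Of 6 ubiquitin and E1 genes 2 were higher and 0 lower. RPS27A, which encodes ubiquitin fused to a ribosomal protein, was 1 of the 2 (log2 0.46, edgeR adjusted p = 0.0217). Over all protein-bearing hybrids against plain ones, 2 of the 8 transcription genes passed, 1 higher and 1 lower, against 36.9% of all genes. In the F test across groups 4 of these 8 passed, against 41% of all genes.

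Markers of the PANC-1 line also moved between these groups. Of 6, which were 5 epithelial genes and the mesenchymal gene VIM, 4 were higher with PD-1, namely KRT19 (log2 0.90 ± 0.113, 1179 against 633 CPM, edgeR adjusted p = 1.37e-06), KRT18 (log2 0.52), KRT8 (log2 0.49) and VIM (log2 0.45), and EPCAM was lower (log2 -0.33, edgeR adjusted p = 0.00636). Of the 8 markers of other cell types 4 had enough counts to be tested, and CD14 was higher at 0.776 against 0.357 CPM (edgeR adjusted p = 0.00193). Their part in the result was not tested.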

How the data were processed

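RNA was sequenced from 30 PANC-1 cultures in 10 groups of 3, with strand-directional libraries. The authors trimmed reads with cutadapt through Trim Galore 0.3.3, aligned them to hg38 with STAR and counted them with RSEM. FastQC 0.11.2 and SAMtools 1.3.1 also stand in the submitters' processing notes. No source used here gives the strand setting or the annotation release. The deposited values are expected counts per gene, not normalized, and TPM, which the authors' RSEM run scaled by effective length and depth.

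Expected counts were rounded, filtered with filterByExpr (18424 genes kept), scaled by TMM and tested in edgeR 4.0.16 (R 4.3.3) with a robust quasi-likelihood fit of all 30 libraries, with Benjamini-Hochberg adjustment over all tested genes and a threshold of 0.05. Totals ran from 21.9 to 60.5 M. The biological coefficient of variation was 0.0942, and RSEM's posterior SD was at most 0.931% of the count of a tested subunit. The scripts were tested on simulated counts for PD-1 against plain DSLBs, with the same spread for every gene. There edgeR recovered 5 of 100 genes changed by log2 0.25 and 72 of 100 changed by 0.5, with 8 false calls. A subunit that did not pass may thus still have changed by a small amount. Alternatives were DESeq2 1.42.0, limma 3.58.1 (voom, and log2(TPM + 1)), RLE factors, other filters, protein-coding genes only, a spline length correction (5 df), a replicate block, the compared libraries alone, a threshold of 0.1, and libraries left out. The study ran pairwise DESeq2, whereas the single edgeR fit here shares 1 estimate of spread.

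Members were found by symbol. Of 60483 records 56321 were matched to GENCODE v44 (GRCh38) for coordinates, and 42 proteasome pseudogenes held counts equal to 0.0804% of the subunits' total. Of the 44 subunits 26 share bases with another annotated gene, 22 on the opposite strand. The members and lists were chosen with earlier results of these data known. Values are given for the catalytic, inducible, activator and inhibitor genes, the tissue-restricted ones, up to 10 of smallest p past the threshold in each comparison, the highest and lowest TPM of each class, the largest spreads between groups, and up to 4 genes of each related list. The neighbours of PSMC4, the motifs and the other genes named were chosen after their values were seen. The p-values measure the spread between parallel cultures of 1 line. Some genes of the related lists are not reported here.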

Additional observations from a re-analysis of the deposited data

How the results depend on the processing

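Each count of subunits is followed by the share of all genes called in the same fit, or by their number. With PD-1 against plain DSLBs (13 subunits) the count was 8 with no filter on low counts (10.1%), 23 in edgeR (36.5%) and 21 in DESeq2 (32.4%) fitted to the compared libraries alone, and 6 to 9 with 1 library left out (14.9 to 17.5%). With protein-bearing against plain DSLBs (20) it was 13 with no filter (16.3%). For CD2 (1) it was 2 in DESeq2 on all libraries (3.59%) and at a threshold of 0.1 (518 genes), 4 with the length trend removed (2.67%), and 0 with RLE factors (1.19%), no filter (2.07%), a mean of at least 100 counts (1.8%), TPM (0.0434%), protein-coding genes only (0.551%), the 4 libraries left out (1.38%), or edgeR (0.0352%) or DESeq2 (0.785%) on the compared libraries, and 0 to 1 with 1 library left out (0.0266 to 2.88%). For CD27 (1) it was 2 in DESeq2 on all libraries (4.8%), in limma-voom (2.84%) and with PSMC3IP and PSME3IP1 counted (421 genes), 4 at a threshold of 0.1 (973 genes), 7 in edgeR (6.1%) and 10 in DESeq2 (9.67%) on the compared libraries, 13 with the length trend removed (6.85%), 0 with a mean of at least 100 counts (3.88%), TPM (0.972%), protein-coding genes only (1.26%) or the 4 libraries left out (0.296%), and 0 to 4 with 1 library left out (0.133 to 3.24%). For CD40L (0) it was 1 in DESeq2 on all (0.736%) and on the compared libraries (0.984%), with no filter (1.2%) and at a threshold of 0.1 (56 genes), for CTLA4 (0) 1 without the 4 libraries (6.45%), and for ICOS (0) 20 in DESeq2 on the compared libraries (7.09%). The cause was not tested.

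The log2 fold changes that changed sign had all missed the threshold with PD-1 against plain DSLBs. PSMB6 went to 0.00373 without the 4 libraries and ranged from -0.0599 to 0.00993 with 1 library left out, 0.00617 among these values. PSMB7 went to -0.0417 with the length trend removed and -0.0747 on log2(TPM + 1). PSME4 went to 0.132 with the length trend removed and ranged from -0.0926 to 0.0130 with 1 library left out, 0.0114 among these values, and in the protein-bearing comparison, where it had passed, to 0.00247 with the length trend removed.

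A replicate block gave 14 subunits for PD-1 against plain DSLBs (22.6%), 20 for the protein-bearing comparison (37.4%), 1 for CD2 (1.42%) and 0 for CD27 (2.43%). Correlations between the deviations of libraries with the same number lay between -0.135 and 0.132, and in no comparison were all 3 over 0.1. For CD40L the values 0.13 and 0.107 lay above the highest value between libraries of different number, 0.0725. For CTLA4 0.132 and 0.0709 lay above 0.0685, and in the other comparisons no value did so. While the study made its conditions in 3 parallel replicates, the labels do not say that a number marks a shared batch.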
